A study of Mus musculus with 12 samples.

Results

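The comparison described here is the ordinary differentiation of C2C12 cells, an established line of mouse muscle precursor cells (myoblasts) derived from the C3H strain. RNA from cells transfected with a control siRNA (siControl) was measured on 3 arrays at day 0 and 3 arrays at day 2 of differentiation, which are 6 of the 12 arrays in the study. The other arrays hold cells transfected with an siRNA against Bach1 (siBach1) at the same days, and they were used only to ask whether a day change differed between the siRNAs. Cells grew in medium with 10% fetal bovine serum. They were moved to 2% horse serum at confluence, 24 hours after transfection, and day 2 followed that switch. The drop in serum, the time at confluence, the time since transfection and differentiation itself therefore changed together and cannot be told apart. C2C12 is a single line, and nothing in the labels says that the 3 replicates of a day were separate cultures, so p-values measure the spread between these samples, which may be technical.

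Each RNA sample was labelled with Cyanine 3 and hybridized to an Agilent mouse array that carries 56605 probes. The values below are normalized log2 signals, that is the log2 of the scanner's background-subtracted intensity minus the 75th percentile of that array. A difference of 1 on this scale is a 2-fold change. Between 27908 and 32869 probes per array were well above background by the scanner's rule, and the 28629 probes that were so on all 3 arrays of at least 1 day were tested with limma. Replicates of a day correlated at 0.988 to 0.996 and arrays of different days at 0.93 to 0.947. The median standard error of a log2 change was 0.13. The arrays numbered 1 and 2 shared a slide and those numbered 3 were on a second slide. Each day kept to 1 column of the slides, so position and day cannot be told apart. Desmin (Des), the muscle intermediate filament, Myod1, Cdh15 and the acetylcholine receptor subunit Chrna1 were well above background on all 6 arrays. These markers of the muscle lineage were therefore present. Myf5, a further myoblast marker, met that rule on only 2 arrays of each day.

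Myoblasts divide while serum growth factors are present. When these are withdrawn, the basic helix-loop-helix factors MyoD (Myod1) and myogenin (Myog), together with the MEF2 proteins, switch on the genes of the contractile apparatus. The cells leave the cell cycle for good with the help of the cyclin-dependent kinase inhibitor p21 (Cdkn1a), fuse into multinucleate myotubes and assemble sarcomeres, the repeating units in which myosin thick filaments slide along actin thin filaments. C2C12 cells are the textbook model of these steps.

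In siControl cells, 2975 of the 28629 probes were called higher at day 2 and 2784 were called lower, where a call needed a 2-fold change or more and a limma p below 0.05 after Benjamini-Hochberg adjustment. These were 10.4% and 9.72% of the probes tested. With 1 probe per gene, the brightest, 1811 of 15227 genes rose (11.9%) and 1485 fell (9.75%). The median log2 change of all genes was 0. The rises reached further than the falls, since 361 genes rose more than 8-fold and 53 fell as far. Among the genes called higher, 175 were not well above background on any day 0 array, and among those called lower, 84 were not so on any day 2 array. In bulk RNA, fewer cells of a type and less RNA per cell cannot be told apart.

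Myog, the factor that commits myoblasts to differentiate, had normalized log2 signals of 2.79, 2.52 and 1.99 on the day 0 arrays and 7.31, 7.43 and 7.11 on the day 2 arrays. It rose 28.8-fold (log2 change 4.85, standard error 0.21, limma adjusted p = 2.4e-05). Acta1, skeletal muscle actin, was at 4.54, 3.90 and 4.07 at day 0 and at 8.76, 8.68 and 8.64 at day 2, a 22.9-fold rise (limma adjusted p = 1.8e-05). Cdkn1a moved from 4.42, 4.36 and 4.59 to 6.69, 6.72 and 6.84, a 4.90-fold rise (limma adjusted p = 2.4e-05). For these 3 marker genes every day 2 array lay above every day 0 array, as the days also did not overlap for 63.1% of all probes tested. The 2 other Cdkn1a probes were dimmer, and their log2 changes were 0.10 and 1.45.

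**Figure D1:**
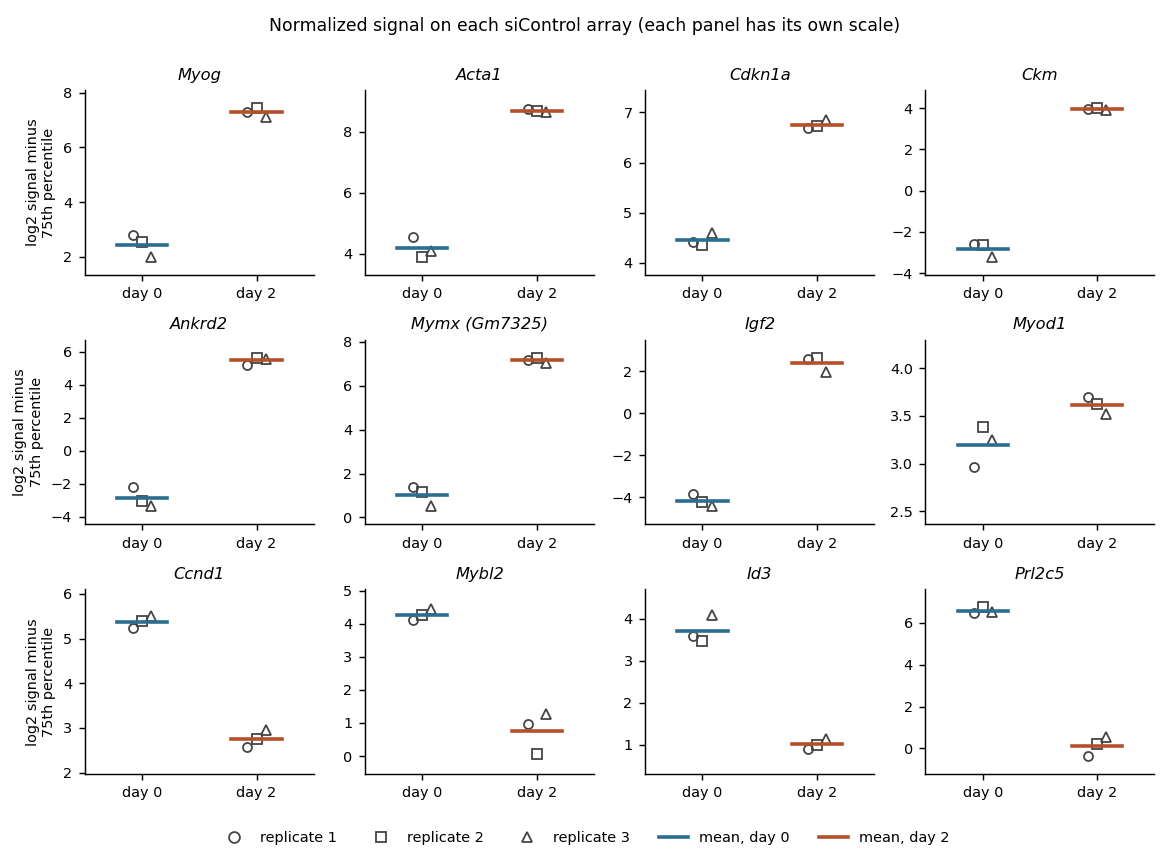
Normalized log2 signal (log2 intensity minus the array's 75th percentile) of 12 genes on the 3 day 0 and 3 day 2 siControl arrays, with symbols for replicates and a bar for the mean of each day. Each panel has its own scale. The arrays of the 2 days separate in all 12 panels, as they do for 63.1% of all probes tested, and the distance is widest for Ankrd2 (log2 change 8.37) and narrowest for Myod1 (0.42).

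Ankrd2 rose most among genes that all 6 arrays measured well above background. This gene codes for a titin-associated ankyrin repeat protein of the sarcomere, and it went from -2.23, -3.08 and -3.39 to 5.19, 5.63 and 5.58, a 330.0-fold rise (log2 change 8.37, standard error 0.31, limma adjusted p = 1.7e-05). Muscle creatine kinase, Ckm, followed with a log2 change of 6.75, from -2.56, -2.64 and -3.21 to 3.96, 3.99 and 3.89. The next were Cox6a2 (6.69), the heart and muscle form of a cytochrome c oxidase subunit, Fn3k (6.64), a kinase that acts on glycated proteins, Dhrs7c (6.62), a dehydrogenase of the sarcoplasmic reticulum, Myoz2 (6.36) and Actn2 (6.31), both proteins of the Z-disc, and the hormone Fgf21 (6.21). Myl4, the embryonic myosin light chain, rose by 6.16, Mymx by 6.14, the glucose transporter Slc2a6 by 6.10 and the myosin chaperone Unc45b by 6.09. These 12 genes were chosen for the size of their rise among genes whose days did not overlap, and their largest limma adjusted p was 0.00011, for Fgf21. The lowest log2 changes among the other probes of Fn3k and Myoz2 were 3.27 and 3.49.

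For genes that were not well above background on any day 0 array the rise has only a lower bound. It was set against the higher of the dimmest signal well above background on each day 0 array and the gene's own signal. Myl2, the slow skeletal and ventricular regulatory light chain, was at least 88.4-fold higher at day 2, and Mybpc2, the fast form of myosin-binding protein C, at least 32.8-fold. The others of the 12 with the largest bounds were mostly not sarcomere genes. Jakmip1 was at least 48-fold higher, the galectins Lgals4 and Lgals6 at least 43.5-fold and 21.4-fold, Asb16 at least 43.0-fold, Ctxn3 at least 33.5-fold, Gm13398 at least 33.1-fold and the chitinase-like Chil1 at least 25.3-fold. Rhox10 and the prostaglandin D synthase Ptgds were each at least 21.5-fold higher and the cartilage matrix protein Cilp at least 21.0-fold. Their limma adjusted p lay between 1.8e-05 and 0.00029. A second Asb16 probe changed by only 0.53.

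**Figure D2:**
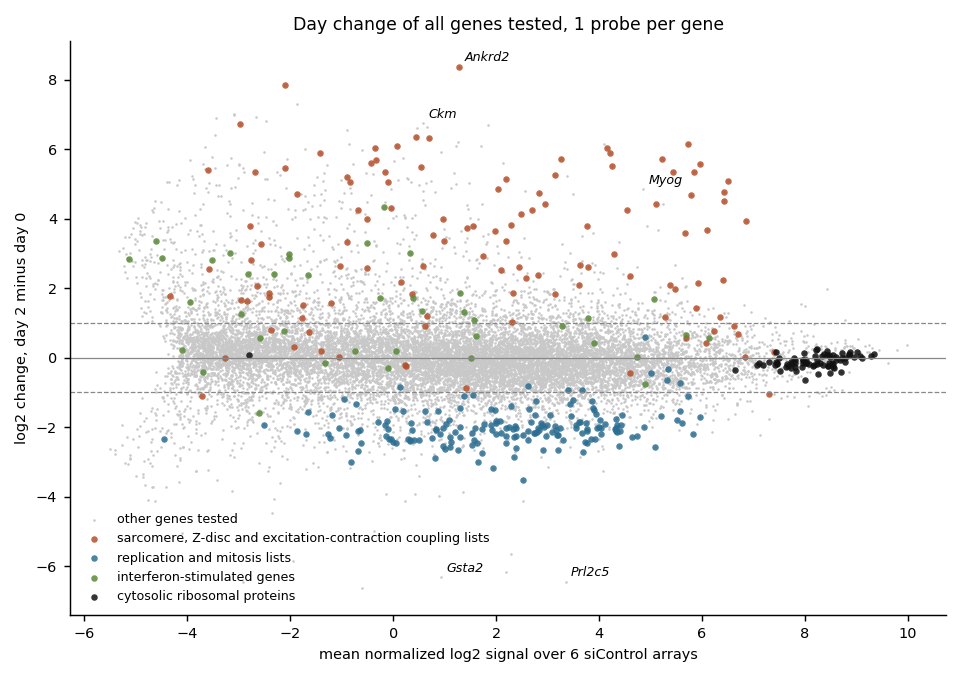
Log2 change from day 0 to day 2 (vertical axis) against the mean normalized log2 signal over the 6 siControl arrays (horizontal axis) for the 15227 genes tested, 1 probe per gene, with dashed lines at a 2-fold change. Genes of the sarcomere, Z-disc and excitation-contraction coupling lists fill the upper part of the plot, the replication and mitosis lists form a band near a log2 change of -2, and the ribosomal proteins sit near 0.

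Genes were then grouped by role. Each list is described by how many of its tested members were called and by its median log2 change, to be read beside 11.9% higher, 9.75% lower and a median of 0 among all genes tested. In the list of myogenic regulatory factors and partners, 10 of 31 tested genes rose and 1 fell, with a median of 0.52. Besides Myog, the largest rises in it were those of Csrp3 (5.49), a LIM protein that acts as a MyoD cofactor and sits at the Z-disc, Rbm24 (4.41), a splicing factor, and Mef2c (3.32). Mef2c went from -0.19, -0.44 and -0.13 to 3.09, 3.1 and 2.99 (limma adjusted p = 1.5e-05), and its relatives Mef2d and Mef2a rose by 1.48 and 1.30. Myod1 stood at 2.96, 3.38 and 3.25 at day 0 and at 3.70, 3.63 and 3.52 at day 2, a log2 change of 0.42 that stayed below the 2-fold limit (limma adjusted p = 0.035). Myf6 gave 0.57 and Myf5 was well above background on only 2 arrays of each day. The gene that fell was the chromatin protein Hmga2 (-2.87), which is high in dividing progenitors. The methyltransferase Smyd1 gave 0.24 on its brighter probe and 2.53 on the dimmer.

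Progenitor factors and inhibitors of myogenesis moved in both directions, with 9 of 27 tested genes higher and 6 lower. The Id proteins, which bind the partners of MyoD and keep it from DNA, fell together. Id3 dropped from 3.58, 3.47 and 4.10 to 0.91, 1.00 and 1.13 (log2 change -2.71, limma adjusted p = 9.1e-05), Id2 changed by -2.53 and Id1 by -1.73. Foxc2, Twist2 and Msc, which codes for the MyoD antagonist musculin, also fell. The members that rose were the Notch ligand Dll1 (2.65), the receptors Notch3 (1.66) and Notch1 (1.36), the Notch target Heyl (2.55), Hes6 (1.55), Spry1 (3.06), an inhibitor of growth factor signalling, Sox8 (2.28), Bhlhe40 and Bhlhe41. Pax7, the satellite cell factor, gave -0.40 (limma adjusted p = 0.093), and the probe for the myostatin gene Mstn was not well above background on any array.

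The genes of the sarcomere rose almost as a whole. In the list of the myosin thick filament and M-band, 25 of 26 tested genes were called higher and the median log2 change was 4.56. Every myosin heavy chain of the sarcomere that could be tested rose. Embryonic Myh3 rose by 5.34, perinatal Myh8 by 4.25, slow Myh7 by 5.13, and the adult fast forms Myh1 and Myh4 by 4.13 and 2.19. These genes lie close in sequence, so that a probe may respond to several of them, and no Myh2 probe met the background rule on either day. Myh3 was at 3.65, 3.03 and 2.84 at day 0 and at 8.58, 8.47 and 8.49 at day 2. The M-band proteins Myom1, Myom3 and Myom2 rose by 5.60, 4.86 and 4.42 and titin (Ttn) by 3.66. Mylk2, a myosin light chain kinase, gave -0.20. Probes of Myh4 ranged from -0.32 to 3.71 and those of Ttn from 0.70 to 3.67, so the value of the brightest probe does not stand for every transcript.

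On the thin filament, 20 of 24 tested genes rose and 2 fell, with a median of 3.63. All troponin genes tested rose. Tnnt3 (5.71), Tnni2 (5.56) and Tnnc2 (5.09) code for the fast skeletal complex, Tnnt1 (4.68), Tnni1 (5.35) and Tnnc1 (5.53) for the slow, and Tnnt2 (3.58) and Tnni3 (2.80) for the cardiac forms of 2 subunits. Nebulin (Neb), which spans the thin filament, rose by 5.06. Nebl, the nebulin-like gene of the heart, changed by -1.09 (limma adjusted p = 0.013), and the other gene called lower was Tpm3.

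Probes of the tropomyosin genes Tpm1 and Tpm3 disagreed within a gene, as they did for 11 genes in all with probes called in both directions. The brightest Tpm1 probe, listed for the transcript NM_001164248, went from 4.89, 4.80 and 4.82 to 6.99, 7.07 and 6.91, whereas the probe for NM_001164251 went from -0.52, -0.09 and -0.44 to -2.29, -2.84 and -2.16. The brightest Tpm3 probe fell from 7.83, 7.79 and 7.82 to 6.87, 6.58 and 6.89, while that for NM_001293748 rose from -0.65, -0.76 and -0.50 to 1.96, 2.14 and 1.61. Tropomyosin genes are known to make muscle and non-muscle proteins from alternative exons. Limma called all 4 probes, with log2 changes of 2.15, -2.07, -1.04 and 2.54.

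MyoD and myogenin bind E-boxes, MEF2 proteins bind an A/T-rich box and serum response factor binds the CArG box. The promoters of 4 genes that rose are printed to show where such letters lie, as the 250 bases before the RefSeq start in GRCm38.p6, 5′ to 3′ on the strand of the gene, with the E-box CAGCTG (the same on both strands), the MEF2 box and the CArG box in capitals.
Acta1, chr8:123894776-123895025, minus strand: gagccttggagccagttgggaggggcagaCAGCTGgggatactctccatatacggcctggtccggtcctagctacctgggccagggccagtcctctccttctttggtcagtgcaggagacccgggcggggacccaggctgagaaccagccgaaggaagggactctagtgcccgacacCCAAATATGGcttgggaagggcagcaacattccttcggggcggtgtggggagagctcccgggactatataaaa
Tnnt2, chr1:135836084-135836333, plus strand: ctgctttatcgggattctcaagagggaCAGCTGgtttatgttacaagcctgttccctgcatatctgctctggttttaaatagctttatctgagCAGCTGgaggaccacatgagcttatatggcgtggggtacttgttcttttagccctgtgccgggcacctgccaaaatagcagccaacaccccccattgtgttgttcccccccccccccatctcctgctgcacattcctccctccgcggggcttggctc
Chrna1, chr2:73580339-73580588, minus strand: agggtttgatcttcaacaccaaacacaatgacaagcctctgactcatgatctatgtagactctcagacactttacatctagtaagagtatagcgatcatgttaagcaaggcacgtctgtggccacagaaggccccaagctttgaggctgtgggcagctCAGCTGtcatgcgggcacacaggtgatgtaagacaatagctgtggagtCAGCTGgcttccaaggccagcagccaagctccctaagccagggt
Myom3, chr4:135759465-135759714, plus strand: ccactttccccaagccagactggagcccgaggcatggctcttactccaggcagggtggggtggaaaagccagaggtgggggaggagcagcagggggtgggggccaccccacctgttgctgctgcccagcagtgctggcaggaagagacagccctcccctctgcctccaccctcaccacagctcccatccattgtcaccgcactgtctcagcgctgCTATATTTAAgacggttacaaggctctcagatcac
Acta1 has CAGCTG 221 to 216 bases before the start and a CArG box at 73 to 64. Tnnt2 has CAGCTG at 223 to 218 and 157 to 152, Chrna1 at 92 to 87 and 44 to 39, and Myom3 has a MEF2 box at 35 to 26. No printed match overlaps another.

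Over windows from 250 bases before to 50 after the start, CAGCTG was found in 8 of 18 thin filament genes with a window (44.4%), in 8 of 23 thick filament genes and in 8 of 23 excitation-contraction coupling genes (34.8% each). It was in 23.9% of windows of genes called higher, in 32.3% of those of genes up more than 8-fold, in 13.3% of those of genes called lower and in 15.4% of all 11487 windows of genes tested. The MEF2 box was in 6 of 23 thick filament genes (26.1%) and in 1.33% of all. These shares are descriptions of letters. A window without a match says nothing about binding elsewhere.

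At the Z-disc and costamere, where thin filaments are anchored and tied to the membrane, 23 of 31 tested genes rose and none fell, with a median of 2.52. Besides Ankrd2, Myoz2 and Actn2, large rises were those of Itgb1bp2 (6.08), which codes for the chaperone melusin, and Cav3 (6.04), the muscle caveolin. Trim63 (5.69), Csrp3 (5.49) and Mypn (5.45) also count among the rises of this list. Mypn was well above background on 1 day 0 array. The 8 genes that were not called were Cryab (0.91), Fhl1 (0.77), Vcl (0.56), Ankrd1 (0.41), Fhl3 (0.18), Plec (0.03), Myoz3 (-0.02) and Synpo2l (-0.44). Ankrd1, Fhl1, Myoz3 and Synpo2l are among those known as striated muscle genes. Small heat shock proteins and sarcomere assembly factors behaved alike, with 19 of 37 higher and 3 lower. Hspb3 (5.32), Hspb7 (5.08), the kelch proteins Klhl41 (5.00) and Klhl40 (4.47) and Unc45b led. The 3 that fell were the mitochondrial chaperones Hspd1 (-1.79) and Hspe1 (-1.15) and the small heat shock gene Hspb6 (-1.27). The median of that list was 1.20, and 0.41 over probes well above background on all 6 arrays.

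Excitation-contraction coupling, the release of calcium from the sarcoplasmic reticulum in response to a nerve impulse, was represented by 35 tested genes, of which 28 rose and none fell (median 2.38). The voltage sensor Cacna1s went from 0.79, 0.02 and 0.38 to 6.14, 6.19 and 6.04, a 52.9-fold rise (limma adjusted p = 1.5e-05). The calcium store proteins Casq2 and Casq1 rose by 5.90 and 5.05, the release channels Ryr3 and Ryr1 by 3.79 and 3.78, and the calcium pump Atp2a1 by 3.99. Junctophilins Jph2 and Jph1, which join the membranes, rose by 2.38 and 1.87. Another Ryr1 probe gave -0.08. At the neuromuscular synapse 10 of 20 tested genes rose. The fetal receptor subunit Chrng rose most, by 4.41, and Erbb3 (4.29), Colq (4.03), which anchors acetylcholinesterase, and Lrp4 (2.47), the agrin receptor, followed. The lowest of the 4 Lrp4 probes gave 0.26. Chrna1, Chrnb1 and Chrne rose by 1.15, 1.13 and 1.04, just past the limit, while Musk (0.94) and Rapsn (0.98) lay just inside it. The other, dimmer Musk probe gave 1.59. Etv4, an ETS factor, was the only member of that list called lower, at -1.58.

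Fusion proteins gave a split picture. Mymk, the myomaker gene listed on the array as Tmem8c, was at 1.36, 1.01 and 1.01 at day 0 and at 5.82, 5.90 and 5.80 at day 2, a 26.2-fold rise (limma adjusted p = 1.1e-05). Mymx, the myomixer gene listed as Gm7325, went from 1.40, 1.16 and 0.50 to 7.16, 7.28 and 7.05, a 70.6-fold rise. These are the muscle-specific fusogens. Of the other tested genes in the list of myoblast adhesion and fusion only 4 rose, Dysf (3.74), Itga7 (1.54), Cdh2 (1.38) and Cdon (1.11), and Nfatc2 was at least 2.73-fold lower. In all 6 of 33 rose, with a median of 0.08, and the adhesion genes Cdh15 (0.92), Vcam1 (-0.35) and Boc (-0.04) did not reach the limit. Of the dystrophin complex, 9 of 27 tested genes rose and 1, Dtnb, fell (-1.48). The sarcoglycan Sgca rose by 2.29 and dystroglycan, Dag1, by 1.56. The 10 probes for dystrophin itself, Dmd, were not well above background on 3 arrays of either day, and its relative Utrn gave 0.81.

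**Figure D3:**
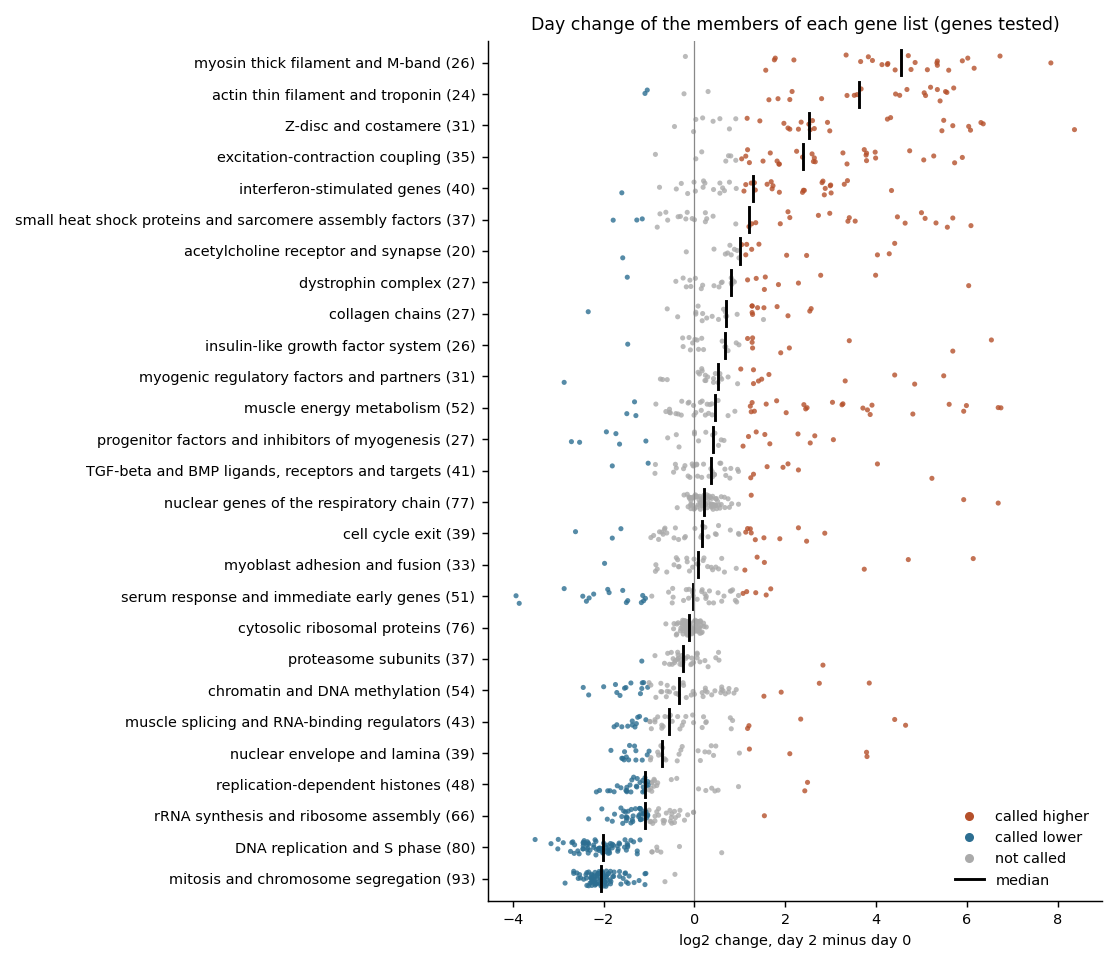
Log2 change from day 0 to day 2 of every tested member of 27 gene lists, with the number of tested genes in brackets, points coloured by call and a bar at the median. The 4 lists of the contractile apparatus have medians from 2.38 to 4.56, and the replication and mitosis lists lie at -2.02 and -2.06 with 1 member above 0 between them.

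In energy metabolism 23 of 52 tested genes rose and 3 fell, with a median of 0.45. Muscle forms of enzymes such as Ckm, Pgam2 and Cox6a2 were among the rises, as was the widely expressed creatine kinase Ckb. Myoglobin (Mb), the oxygen store of muscle, rose from -0.13, -1.25 and -0.63 to 5.15, 4.68 and 4.98. Genes of general glycolysis such as Gapdh (0.15), Aldoa (0.28) and Ldha (-0.14) did not change by 2-fold. The 77 nuclear genes of the respiratory chain held only 3 that rose, Cox6a2, Cox8b (5.93) and Cox7a1 (1.25), all muscle forms of cytochrome c oxidase subunits, and none fell.

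This pattern was followed through 29 pairs of a muscle gene and a widely expressed gene for the same kind of protein, of which 27 had both members tested. The muscle gene was called higher in 21 pairs. In 15 of these the widely expressed gene was not called, in 4 it was called lower and in 2 it was called higher. The opposite moves were those of Cav3 and Cav1 (6.04 and -1.54), Pgam2 and Pgam1 (4.81 and -1.24), Slc2a4 and Slc2a1 (2.41 and -1.32), the insulin-responsive and the basal glucose transporter, and Adssl1 and Adss (2.48 and -1.75). Acta1 rose by 4.52 where Actb, the cytoplasmic actin, gave 0.17, and Myl1 by 3.92 where Myl6 gave 0.46. Both members rose for creatine kinase (Ckm 6.75, Ckb 1.81) and for the calcium pumps (Atp2a1 3.99, Atp2a2 2.62). The lowest of the 3 Atp2a2 probes gave -0.4. In 6 pairs the muscle gene was not called, among them Eno3 (0.89), Tmod4 (0.30) and Slc25a4 (-0.01). The phosphorylase kinase pair ran the other way, with 0.39 for Phka1 and 1.26 for Phka2.

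**Figure D4:**
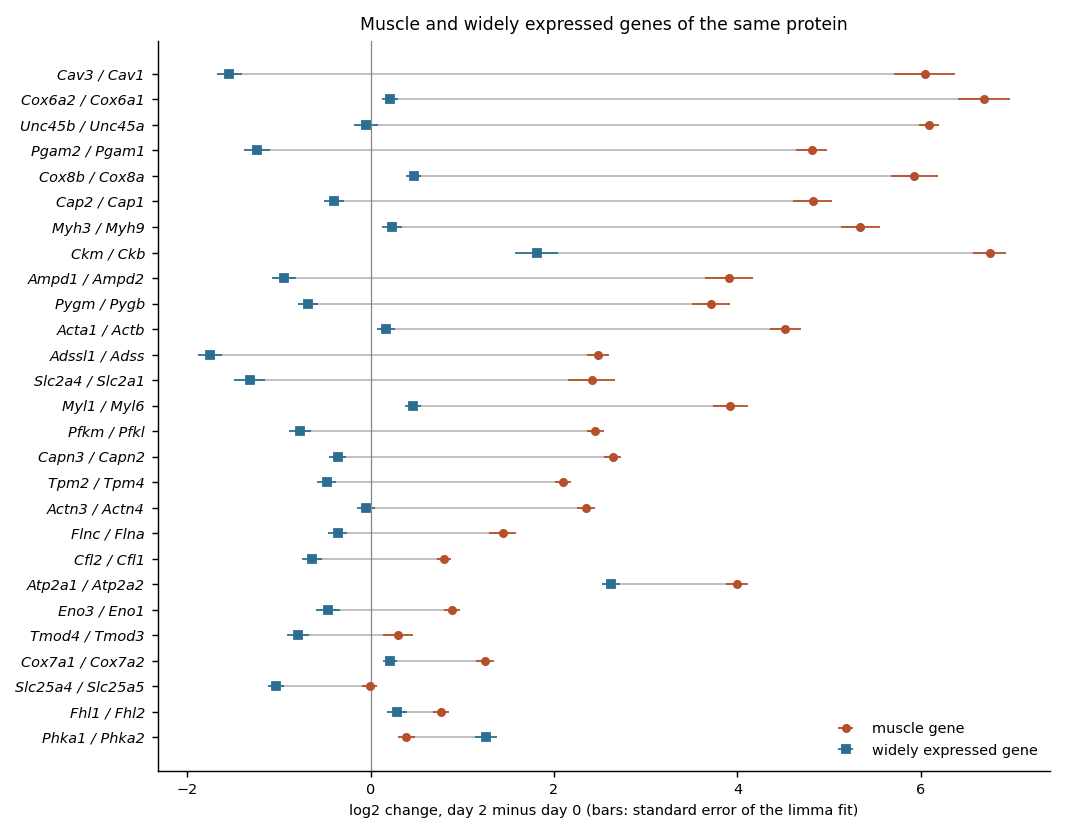
Log2 change from day 0 to day 2 of the muscle gene (circles) and of the widely expressed gene (squares) in the 27 pairs with both tested, with the standard error of the limma fit as bars. The muscle gene lies to the right of its partner in every pair except Phka1 and Phka2.

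Growth factor and matrix genes moved in both directions. Igf2, the growth factor that C2C12 cells make for themselves during differentiation, went from -3.82, -4.23 and -4.43 to 2.56, 2.63 and 1.96, a 93.1-fold rise (limma adjusted p = 1.6e-05). However, it was well above background on only 2 of the day 0 arrays, and the other Igf2 probe rose by 4.72 on the log2 scale. The neighbouring imprinted noncoding RNA H19 rose by 1.97. In the insulin-like growth factor list 9 of 26 tested genes rose and 1 fell, Igfbp2 (-1.47). It also held the ubiquitin ligases of muscle breakdown Trim63 (5.69) and Fbxo32 (3.41), which both rose. Among TGF-beta and BMP genes 8 of 41 rose and 2 fell. Decorin (Dcn) went from 1.28, 0.55 and 0.43 to 6.09, 6.14 and 5.71, and Fst, the myostatin and activin antagonist follistatin, from -1.54, -1.81 and -1.59 to 2.67, 2.24 and 2.24. Grem1, a BMP antagonist, fell by 1.81 on the log2 scale and Smad7 by 1.02. Of 27 collagen chains tested 10 rose, led by Col1a1 (2.57) and Col6a2 (2.54), and Col7a1 fell (-2.34). Probes of Col6a2 ranged from 0.06 to 2.54.

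Of the genes that fell, the largest changes among those well above background on all 6 arrays lay mostly outside the cell cycle lists. Prl2c5, a proliferin hormone gene, dropped from 6.45, 6.74 and 6.53 to -0.36, 0.21 and 0.53, an 87.2-fold fall (log2 change -6.45, standard error 0.23, limma adjusted p = 1.6e-05), and its relative Prl2c1 by 5.66 on the log2 scale. The glutathione transferase Gsta2 changed by -6.31, from 4.13, 4.34 and 3.78 to -2.28, -2.01 and -2.38, and the related Gm10639 by -6.18. The proliferins and the transferases each come from families of near-identical genes that a probe may not tell apart. Next came the organic anion transporter Slco4a1 (-4.99), the integrin Itgb7 (-4.12), the neurofilament Nefm (-4.12), the quinone reductase Nqo1 (-3.99), the EGF receptor ligand Areg (-3.93), 1700012B09Rik (-3.91), Fosl1 (-3.86), which codes for the AP-1 protein Fra-1, and Mybl2 (-3.51). These 12 were likewise chosen for the size of their fall among genes whose days did not overlap, and their largest limma adjusted p was 0.00022, for Mybl2. Another Slco4a1 probe gave 0.38.

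Genes that fell below background by day 2 also have only bounds. Keratin 13 (Krt13) was at least 45.2-fold lower and the protease inhibitor Serpinb2 at least 28.5-fold lower. Rnf183 was at least 9.18-fold lower, the epidermal envelope genes Lce1g and Lce1i at least 7.68-fold and 4.97-fold, 5830416P10Rik at least 7.01-fold and the transcription factor Batf3 at least 4.97-fold. The other 5830416P10Rik probe gave a log2 change of -0.11. The remaining 5, 8030451A03Rik, Vmn2r78, Palb2, Slc15a3 and Afp, were at least 3.91-fold to 4.75-fold lower.

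The fall of cell division genes was broad rather than deep. In the list of DNA replication and S phase, 73 of 80 tested genes were called lower, none higher, and the median log2 change was -2.02. Mcm10, which helps to open replication origins, dropped from 3.32, 3.50 and 3.75 to 0.56, -0.43 and 0.96 (limma adjusted p = 0.00051). The helicase subunits Mcm5 and Mcm3 changed by -2.65 and -2.57, thymidine kinase Tk1 by -2.70 and the licensing factor Cdc6 by -2.64. Rpa3, Gins4, Wdhd1, E2f8, Ung and Gins3 lay between -0.94 and -0.33 and were not called, and E2f2, at 0.60, was the only tested member above 0.

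Mitosis and chromosome segregation gave 91 of 93 tested genes lower and none higher, with a median of -2.06. The 2 that were not called were Bub3 (-0.65) and Knstrn (-0.43), whose other probe gave -2.09. Cdk1, the kinase that starts mitosis, went from 4.27, 3.95 and 4.26 to 1.97, 1.66 and 2.43, and Cdc20, the activator of the anaphase-promoting complex, from 5.81, 5.88 and 5.91 to 3.77, 3.14 and 3.93 (limma adjusted p = 0.00033 and 0.00025). Aurka, Aurkb and Plk1 changed by -2.53, -2.51 and -2.29. The proliferation antigen Mki67 went from 4.98, 5.02 and 5.01 to 3.23, 2.35 and 3.44, a 3.99-fold fall. Day 2 replicate 2 was the lowest of the 3 day 2 arrays for Mcm10, Cdk1, Cdc20 and Mki67. The median of the mitosis list was -2.43 between the arrays numbered 2, -1.94 between those numbered 1 and -1.78 between those numbered 3.

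Of 48 replication-dependent histone genes tested 28 fell and 2 rose. Hist1h1a fell most (-2.16). Those that rose were Hist2h3c1 (2.43) and Hist2h3c2 (2.49), near-identical copies that were at -3.58, -3.93 and -3.10 and at -1.70, -2.34 and -1.86 at day 0 and at -1.35, -0.73 and -1.24 and at 0.24, 0.85 and 0.47 at day 2.

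Promoters of the same 2 groups carry the letters of known cell cycle elements. E2F factors bind sites such as TTTGGCG or TTTCCCG and drive S phase genes, and the cell cycle homology element TTTGAA is bound by the DREAM and MuvB complexes. Only these 2 E2F forms were searched. Close variants such as TTTCGCG, which lies in the printed Cdk1 promoter, were neither counted nor marked. The NF-Y box CCAAT is common in promoters of both kinds. The promoters of a helicase subunit and of 2 mitotic regulators are printed as above, with all of these letters in capitals on either strand.
Mcm6, chr1:128359706-128359955, minus strand: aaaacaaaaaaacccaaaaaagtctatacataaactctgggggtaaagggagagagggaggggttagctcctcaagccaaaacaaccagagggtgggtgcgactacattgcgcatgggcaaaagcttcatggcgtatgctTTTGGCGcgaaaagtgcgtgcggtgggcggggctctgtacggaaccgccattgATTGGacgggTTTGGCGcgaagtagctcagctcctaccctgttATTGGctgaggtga
Cdc20, chr4:118437344-118437593, minus strand: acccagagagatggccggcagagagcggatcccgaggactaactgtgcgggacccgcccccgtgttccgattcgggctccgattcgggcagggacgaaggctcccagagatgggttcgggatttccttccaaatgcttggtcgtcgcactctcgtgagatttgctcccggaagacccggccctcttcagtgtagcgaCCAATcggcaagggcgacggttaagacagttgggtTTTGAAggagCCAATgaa
Cdk1, chr10:69352913-69353162, minus strand: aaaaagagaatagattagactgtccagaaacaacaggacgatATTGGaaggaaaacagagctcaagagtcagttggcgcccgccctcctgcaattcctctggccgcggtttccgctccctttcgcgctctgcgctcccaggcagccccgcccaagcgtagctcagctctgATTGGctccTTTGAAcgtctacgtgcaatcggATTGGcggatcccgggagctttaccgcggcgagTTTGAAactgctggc
Mcm6, which changed by -1.79, has TTTGGCG at 110 to 104 and at 47 to 41 bases before the start. Cdc20 has TTTGAA at 18 to 13 and Cdk1 at 71 to 66 and 15 to 10, each with CCAAT on either strand nearby. No printed match overlaps another.

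Either E2F form was in 27 of 63 windows of the replication list (42.9%), 11 of 74 of the mitosis list (14.9%) and 7.71% of all genes tested. TTTGAA was in 47 of 74 mitosis windows (63.5%), 10 of 63 replication windows (15.9%) and 12.8% of all. CCAAT was in 49 of 74 mitosis windows (66.2%), 38 of 63 replication windows (60.3%) and 38.9% of all. TTTGAA together with CCAAT was in 37 of the 74 mitosis windows and in 5.31% of all. Neither E2F form searched was found in the windows of the thick filament, thin filament or excitation-contraction coupling lists.

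**Figure D5:**
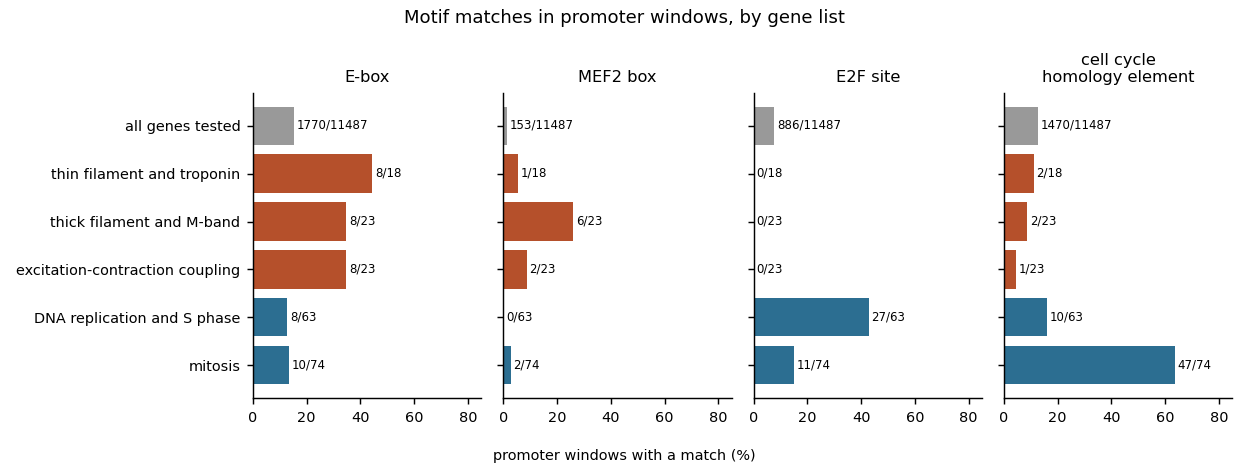
Share of promoter windows (250 bases before to 50 after the RefSeq start) that hold a motif, for all genes tested and for 5 gene lists, with counts beside the bars. Matches to the E-box form CAGCTG and to the MEF2 box are most frequent in muscle lists. Those to either E2F form are most frequent in the replication list and those to the cell cycle homology element in the mitosis list.

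Regulators of cell cycle exit moved less. Of 39 tested, 10 rose and 3 fell. Cyclin D1 (Ccnd1), which drives entry into S phase, fell from 5.24, 5.40 and 5.50 to 2.57, 2.75 and 2.96 (limma adjusted p = 3.8e-05), whereas cyclin D3 (Ccnd3) rose by 1.53. The retinoblastoma gene Rb1 went from 2.07, 2.02 and 2.05 to 3.90, 3.88 and 4.0, and its relative Rbl1 fell (-1.81). Beside Cdkn1a, the kinase inhibitor Cdkn1c rose (2.47), while Cdkn1b (0.48) and Cdkn2c (-0.45) stayed under the limit. Lin9, a subunit of MuvB, fell on its brightest probe (-1.62), while a probe for the sequence AK052618 rose (2.98). Of 32 tested p53 targets, among which Cdkn1a counts too, 6 rose and 3 fell, with a median of -0.24. Gadd45a (2.87) and Pmaip1 (2.42) rose and Pidd1 (-2.39) fell. Probes of Pidd1 ranged from -2.39 to -0.01.

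Genes for making ribosomes fell, while no gene for a ribosomal protein was called. In the list of rRNA synthesis and ribosome assembly 38 of 66 tested genes were lower and 1 higher, with a median of -1.10. Dkc1, the pseudouridine synthase dyskerin, went from 1.28, 1.41 and 1.04 to -1.10, -1.09 and -1.07, and Lyar (-2.04), Nop56 (-1.92) and nucleolin, Ncl (-1.58), followed. Myc, a known driver of such genes, fell by 1.5 on the log2 scale and its antagonist Mxd4 rose by 1.54. None of 76 cytosolic ribosomal protein genes was called in either direction, with a median of -0.13. Of 37 proteasome genes, the immune subunit Psmb8 was at least 1.91-fold higher and Psmd5 fell (-1.16).

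Serum response genes moved in both directions. Of 51 tested, 16 fell (31.4%, against 9.75% of all genes) and 5 rose (9.8%), while the median was -0.04 and turned to 0.06 under quantile normalization. Beside Areg and Fosl1, Ereg (-2.46), Dusp5 (-2.38) and Plaur (-2.32) fell, which are targets of the ERK pathway. The 5 that rose included Fos, from -2.20, -1.58 and -1.76 to -0.26, 0.20 and -0.45, Egr3 (1.58), Egr2 (1.35) and Egr1 (1.07).

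Genes for splicing, chromatin and the nuclear envelope fell on balance, with a few muscle forms rising. Of 43 tested splicing and RNA-binding regulators 11 fell and 5 rose. Ptbp1, which represses muscle exons, went from 4.41, 4.56 and 4.68 to 2.76, 2.53 and 3.06, and Srsf7 (-1.71), Srsf10 (-1.60) and Srsf2 (-1.47) fell with it. Rbfox1 rose by 4.65 and Rbm24 by 4.41, both factors that promote muscle exons. Of 54 chromatin genes 14 fell and 4 rose. Hells (-2.45), Uhrf1 (-2.33), Dnmt1 (-1.54) and Ezh2 (-1.40), which copy or set repressive marks, fell. Each of them is also counted in the list of DNA replication and S phase. Those that rose were Ezh1 (1.53), the alternative to Ezh2, Dnmt3a (1.91 on the brightest probe and -0.85 on the other), Hdac9 (2.75) and Hdac11, at least 5.07-fold. Of 39 nuclear envelope genes 14 fell and 4 rose. Lamin B1 (Lmnb1, -1.84) and Lbr (-1.58) fell, as did the pore genes Nup43, Nup37 and Nup160, and the muscle envelope genes Plpp7 (listed as Ppapdc3, 3.80) and Tmem38a (3.79), the pore gene Nup210 (2.10) and Syne1 (1.21) rose.

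Interferon-stimulated genes were higher at day 2, with 23 of 40 tested called higher and 1 lower and a median of 1.28. Irf7, their amplifying factor, went from -2.07, -2.13 and -2.28 to 0.97, 1.81 and 0.64 (limma adjusted p = 0.00022). Ifi27l2a went from -1.02, -2.91 and -3.11 to 2.04, 1.64 and 2.30, with a day 0 spread wider than that of most genes. Usp18, which limits interferon signalling, was at least 3.31-fold higher. Parp14 (3.01), Oasl2 (2.88), Mx2 (2.86) and Isg15 (1.87) rose as well, and Oasl1 fell (-1.60). Parp14 and Mx2 were well above background on only 1 day 0 array, so their changes rest partly on signals near background. Some of these genes are made by leukocytes. Of 12 leukocyte markers 7 were tested, 1 rose (Itgam, 1.04) and 1 fell (Cd68, -1.14), with a median of -0.61. Their summed linear signal was 20.3 to 23.9 at day 0 and 27.5 to 36.3 at day 2, against the sign of the median. Lyz2, Adgre1, Cd79a and Fcgr1 were among those not well above background on all 3 arrays of either day. The part of other cells in this result was not tested.

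The summed linear signal of tested markers of other cell types did not overlap between days in any list, like 63.1% of probes tested. For neuron markers it was 152 to 178 at day 0 and 68.8 to 76.6 at day 2, for bone and cartilage markers 220.0 to 248 and 162 to 178, for adipocyte markers 5.95 to 7.04 and 3.1 to 4.57, for endothelial markers 1.34 to 1.52 and 0.764 to 1.08, and for cardiac and smooth muscle markers 64.2 to 72.2 and 400.0 to 440.0. A sum follows its brightest members, and the median log2 changes of these lists were -0.1, 0.33, 0.02, 0.11 and 1.68 in the same order. The part of such cells in the results was not tested. Of 12 endothelial markers 4 were tested, 1 rose and 1 fell, and Cdh5, Kdr, Tek and Tie1 were not well above background on all 3 arrays of either day, and the one that rose, Vwf, was at least 3.36-fold higher. Of 7 adipocyte markers tested 2 rose and 1 fell, and of 7 bone and cartilage markers 1 rose and none fell. Adipoq, Cidec and Retn among adipocyte markers, and Bglap, Ibsp and Acan among bone and cartilage markers, failed the same rule, and Dmp1 was at least 3.59-fold higher. Of the neuron markers Nefm and Nefl (-3.25) fell and none of 10 tested rose. In the list of cardiac and smooth muscle markers 7 of 12 tested genes rose, among them Myl2, Myh7, Myl3 (4.26), Tnnt2 and Tnni3. Slow skeletal muscle also uses Myl2, Myl3 and Myh7, and embryonic skeletal muscle uses Tnnt2, whereas Tnni3 codes for the cardiac troponin I. The cardiac factors Gata4 (-0.16) and Nkx2-5 (-0.66) were not called and Nppa could not be tested.

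The day change was also compared with that of siBach1 cells in a fit of all 12 arrays. The array's Bach1 probe was at 1.73, 1.55 and 1.78 on the siControl day 0 arrays against 0.18, -0.22 and -0.22 on those of siBach1, and at 2.56, 2.55 and 2.58 against 0.57, 0.56 and 0.65 at day 2, so it was lower in the silenced cells on every array. Of 29664 probes, limma called 427 (1.44%) as changing differently. With 1 probe per gene the day change differed for 96 of the 1811 genes called higher in siControl cells, 51 of the 1485 called lower and 106 of 11931 not called. Of the 96, the difference was positive for 39 and negative for 57, and of the 51 it was positive for 47 and negative for 4. The genes were grouped by their change on the same siControl arrays that enter the difference, so the signs of these counts are partly set by that choice. For Myog the difference of log2 changes was -1.08 (limma adjusted p = 0.071), for Acta1 -0.36 (limma adjusted p = 0.45) and for Cdkn1a -0.67 (limma adjusted p = 0.017, under the 2-fold limit). Without day 2 replicate 1 of siBach1 the count of probes was 246, and without the filter on dim probes it was 49.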

How the data were processed

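RNA of 12 C2C12 samples was hybridized to 1-colour Agilent arrays, and the 6 siControl arrays are the subject here. The deposited scanner files hold the intensity of each spot, which the authors obtained with Agilent Feature Extraction, version 10.7.3.1 per the file headers and 9.1 per the submitters' processing notes. The deposited value table holds log2 intensity minus the 75th percentile of the array and the median of the probe, as a comparison with the scanner files showed.

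Control spots and outlier spots were removed, repeated spots were averaged, and the 75th percentile of each array was subtracted from log2 of the background-subtracted intensity. Replicates were compared with limma 3.58.1 in R 4.3.3 over probes well above background on all 3 arrays of a day, and called at an adjusted p under 0.05 and a 2-fold change. A gene is represented by its brightest tested probe. The fit was first tested on simulated data. The number of arrays limits the precision. The named genes are the markers, the 12 largest rises and falls, the 12 largest bounds each way, and the leading called members of each list with a few that were not called. The members and lists were chosen with earlier results of these data known. Genes are mostly given by their array symbol, with the newer names Mymk, Mymx and Plpp7 where stated. RefSeq accessions matched 13451 of 15227 genes, and the RefSeq names were used to look up promoters. Promoters come from RefSeq (GRCm38.p6), with the first listed window of a gene.

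Arrays of the same replicate number share a slide. Their deviations from the day means correlated at 0.266, 0.147 and 0.509 for numbers 1, 2 and 3. The main fit did not pair the arrays, and pairing by number was run as an alternative. Numbers 1 and 2, on the same slide, correlated across numbers at 0.273 and 0.185, so the slide and the number cannot be told apart for them. Alternatives covered normalization, background correction, filters, blocks, test, threshold and leaving out each array. Values of a few list members are not reported here.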

Additional observations from a re-analysis of the deposited data

Results flagged for a closer look

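For 10 of the 272 genes named, the day change differed between siBach1 and siControl cells, against 1.44% of all probes in that fit. The call came from limma's test of the difference, at an adjusted p under 0.05 and a difference of at least 1 on the log2 scale. Some of these genes were named for a large change on the siControl arrays. That change enters the difference, so the signs below are partly set by the choice. The difference was -2.47 for Spry1, whose day change was 3.06 with siControl and 0.59 with siBach1 (limma adjusted p = 0.0021), -2.28 for Sox8, -2.19 for Casq1, -1.96 for Cdkn1c and -1.01 for Pmaip1. All 5 had a smaller day change in the silenced cells. Nup210 (1.56) and Slc2a4 (1.85) rose more there. Gsta2 (3.43), Gm10639 (3.35) and Serpinb2 (1.59) fell less. The day change of Gsta2 was -6.31 with siControl and -2.87 with siBach1 (limma adjusted p = 0.0016).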

How the results depend on the processing

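With the replicate number as a block, which pairs the arrays, 3004 probes were called higher and 2812 lower, and 628 differed between the siRNAs. It changed the call of none of the 272 genes named. Normexp background correction gave 1813 higher and 1750 lower, adjusted p alone 7156 and 8220, a fold change of at least 4 gave 1033 and 591, and 1 probe per gene 1811 and 1485. Leaving out each array gave 2848 to 3069 higher and 2551 to 3057 lower. The number of probes whose day change differed between the siRNAs ran from 246, without siBach1 day 2 replicate 1, to 465, and was 49 with no filter on dim probes. The methods' t-test gave 2915 higher and 2739 lower without adjustment and 2798 and 2653 after Benjamini-Hochberg. The cause of these shifts was not tested. No named gene reversed. Of 4583 values of named genes under alternatives, 42 lost and 9 gained a call. Normexp ended 21 calls, those of 8030451A03Rik, Afp, Batf3, Bhlhe41, Cd68, Chrne, Dmp1, Egr1, Lce1i, Msc, Mx2, Nebl, Nfatc2, Oasl1, Palb2, Psmb8, Slc15a3, Smad7, Syne1, Vmn2r78 and Vwf. Leaving out 1 array ended calls of Itgam (0.92 to 0.99), Bhlhe41 (0.84 and 0.98), Chrne (0.98 and 0.93), Egr1 (0.99 and 0.96), Smad7 (-0.93 and -1.0), Msc (-0.79), Tpm3 (-0.94) and Nebl (-0.82). Quantile normalization ended those of Bhlhe41, Chrne and Tpm3. The medians of the serum response, cholesterol, cytoskeleton, adipocyte, bone and endothelial lists changed sign under at least 1 alternative.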
